A study of Mus musculus with 12 samples.

Results

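The transcriptome of MLE-12 cells was examined for changes that accompanied M2-Exo under both injuries of the study, by comparing the 6 libraries with M2-Exo with the 6 libraries without it after the difference between the injuries had been taken out. All 12 of the 12 libraries of the series entered this comparison. They form 4 groups of 3. The LPS group received lipopolysaccharide at 100 ng/mL in 21% oxygen, and the Hyp group was kept in 85% oxygen (hyperoxia). The LPS + M2-Exo and Hyp + M2-Exo groups received the same injury and then M2-Exo at 10 μg/mL, and all groups were collected at 24 h. M2-Exo are exosomes from the mouse alveolar macrophage line MH-S after polarization with IL-4. MLE-12 is 1 immortalized mouse lung epithelial line that carries the SV40 large T antigen. Every group carries an injury, so uninjured cells, injured cells given another vesicle preparation and a vehicle group were not analysed here. The sources used here do not say whether the libraries of a group came from separate cultures, and p-values then measure only the spread between these samples.

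Alveolar type II cells make surfactant and renew the alveolar epithelium, and high oxygen and bacterial lipopolysaccharide are both used to injure them. Lipopolysaccharide acts through Toll-like receptor signalling on inflammatory genes, whereas hyperoxia damages cells by oxidants. Exosomes are small vesicles that carry proteins, lipids and RNA from one cell to another. A response of the epithelial cell to the vesicles themselves would be sought among genes that lie on the same side in both injuries, which is the question of this comparison.

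The libraries held between 16021833 and 24074616 counts. On the first principal component of log2 CPM (counts scaled to a common library total), which carried 82.1% of the variance, the injuries were separated. LPS + M2-Exo replicate 2 stood apart on the second component, at -28.8, and Hyp + M2-Exo replicate 3 on the third, at -23.9. These are the libraries that stood apart in the text below. LPS + M2-Exo replicate 1 lay at -22.3 on the fourth component, which carried 2.07% of the variance, and is not among them. The common biological coefficient of variation around the additive fit was 9.35%. It holds the spread between replicates and also any difference of the M2-Exo change between the injuries. The transcription factor Nkx2-1 (35.2 to 187 CPM), the lipid transporter Abca3 (135 to 203 CPM) and surfactant protein C, Sftpc (10.5 to 23.4 CPM), were detected in every library. The epithelial adhesion gene Epcam did not exceed 1.17 CPM, the keratin Krt18 0.259 CPM and the type II marker Lamp3 1.07 CPM.

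No gene passed the test for an effect of M2-Exo common to both injuries. By the quasi-likelihood F test of edgeR with Benjamini-Hochberg adjustment, 0 of 14187 genes (0%) had an adjusted p under 0.05, and the smallest adjusted p was 0.128. At an unadjusted p under 0.05 there were 1407 genes (9.92%), of which 739 (5.21%) were higher with M2-Exo and 668 (4.71%) were lower. With scaling by library size alone these were 581 higher and 798 lower. The DESeq2 Wald test on the same counts called 40 genes, 22 higher and 18 lower, limma-trend on log2 CPM called 0, and limma on log2(FPKM + 1) called 0. Differences were small. The median absolute log2 fold change was 0.0573, and 97.9% of genes lay below 0.5 in either direction. A log2 fold change of at least 0.5 together with an unadjusted p under 0.05 was seen for 125 genes.

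The changes in the 2 injuries, which share no library, showed little relation to each other across genes. Over the 14187 genes, which are not independent replicates, the log2 fold changes with M2-Exo in LPS and in hyperoxia had a Pearson r of 0.0149 and a Spearman rho of 0.015. The sign was the same for 7224 genes (50.9%). All 3 libraries with M2-Exo lay outside the range of the 3 without it for 2381 genes in LPS and for 2238 genes in hyperoxia. Of these, 108 (0.761% of genes tested) lay above in both injuries and 74 (0.522%) below in both, whereas 170 (1.2%) were separated in opposite directions. With scaling by library size alone the first of these counts were 79 above and 99 below. The change with M2-Exo differed between the injuries for 5 genes (0.0352%) at an adjusted p under 0.05 of the interaction term, and for 1387 genes (9.78%) at an unadjusted p under 0.05.

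**Figure D1:**
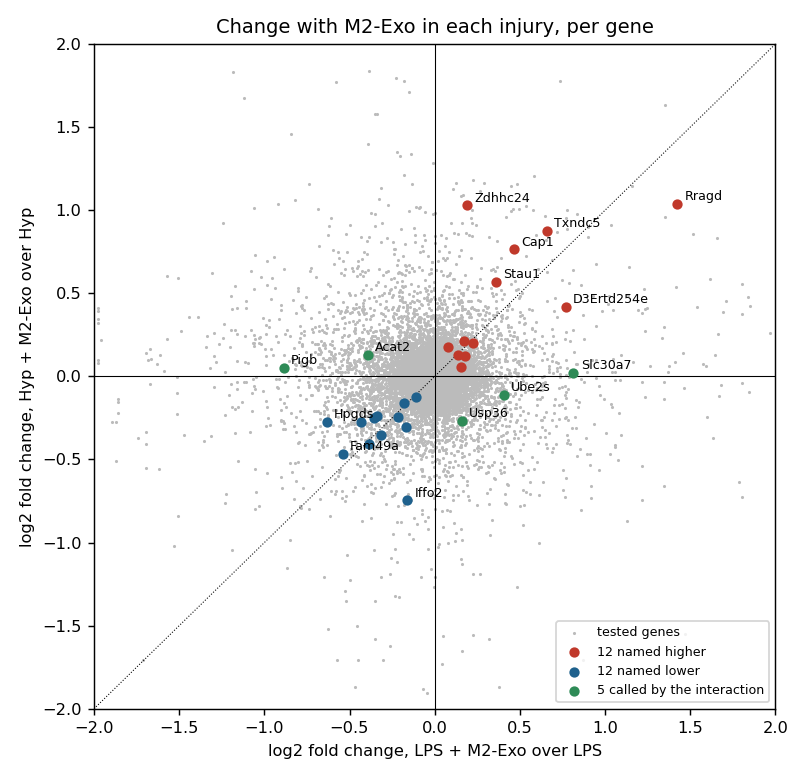
Each point is 1 gene, placed by its log2 fold change with M2-Exo in LPS (x axis) and in hyperoxia (y axis). The 12 named genes with higher levels (red), the 12 with lower levels (blue) and the 5 genes called by the interaction term (green) are marked, the dotted line marks equal change, and 97 of 14187 genes lie outside the axes. The cloud of genes follows no diagonal (Spearman rho 0.015), and the red and blue points lie in the corners where both changes have the same sign.

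As no gene was called, the 12 genes of each direction with the smallest p are given here as values. Their unadjusted p did not exceed 0.000715, and their adjusted p lay between 0.128 and 0.296. A shared sign in both injuries was a condition of the choice. For 18 of them (8 higher, 10 lower) the libraries with and without M2-Exo did not overlap in either injury, against 0.761% and 0.522% of all genes. A small p and a lack of overlap come from the same counts, so this is a description. DESeq2 gave 20 of the 24 an adjusted p under 0.05.

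Among the genes with higher levels, Rragd had the largest difference. Rragd (chromosome 4, 32983037 to 33022180, GRCm38, plus strand) encodes RagD, a GTPase that brings mTORC1 to the lysosome. Its level was 30.1, 34.9 and 25.9 CPM in LPS and 76.0, 83.7 and 84.3 CPM in LPS + M2-Exo. It was 49.4, 52.0 and 47.0 CPM in Hyp and 46.7, 133 and 125 CPM in Hyp + M2-Exo. The groups did not overlap in LPS, but Hyp + M2-Exo replicate 1 lay below all 3 Hyp libraries. The log2 fold change was 1.22 (SE 0.202, adjusted p = 0.143). It was 1.41 without Hyp + M2-Exo replicate 1, with an adjusted p under 0.05. That library was singled out by its low value for Rragd, and leaving out any other single library did not give such an adjusted p. Rheb, the small GTPase that activates mTORC1, had a smaller difference of 0.13 (SE 0.0253, adjusted p = 0.271). Its level was 125 to 127 CPM in LPS, 132 to 134 in LPS + M2-Exo, 130 to 134 in Hyp and 145 to 153 in Hyp + M2-Exo, so that the groups did not overlap in either injury.

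Cap1, a regulator of actin filament turnover, had the smallest p among the higher genes (chromosome 4, 122859047 to 122886056, minus strand, overlapping Ppt1). Its level was close to 200 CPM in every library without M2-Exo, at 192, 196 and 198 CPM in LPS and 197, 200 and 196 CPM in Hyp. With M2-Exo it was 343, 342 and 324 CPM in hyperoxia and 295, 195 and 319 CPM in LPS. LPS + M2-Exo replicate 2 thus lay within the range of the LPS libraries, and the other 5 libraries with M2-Exo lay above all libraries without it. The log2 fold change was 0.62 (SE 0.0961, adjusted p = 0.128), and 0.71 without LPS + M2-Exo replicate 2, with an adjusted p under 0.05. That library was singled out by its low value for Cap1, and leaving out any other single library did not give such an adjusted p. As the counting is not stated to use strand, reads of Cap1 and Ppt1 may not be fully told apart.

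Txndc5, a protein disulfide isomerase of the endoplasmic reticulum, and Stau1, a double-stranded RNA-binding protein, each had 1 LPS library near the level seen with M2-Exo. Cap1, Txndc5 and Stau1 thus stood at distinct levels within 1 group, and what sets these levels was not tested. Txndc5 was at 194, 379 and 199 CPM in LPS, 409, 397 and 413 CPM in LPS + M2-Exo, 109, 104 and 112 CPM in Hyp and 217, 189 and 192 CPM in Hyp + M2-Exo. Stau1 was at 91.7, 61.7 and 61.5 CPM in LPS and 92.4, 92.1 and 91.1 CPM in LPS + M2-Exo. In hyperoxia it was at 53.2, 52.5 and 51.6 CPM without and 74.6, 77.2 and 81.6 CPM with M2-Exo. The log2 fold changes were 0.77 (SE 0.137) for Txndc5 and 0.46 (SE 0.0867) for Stau1. Txndc5 had a log2 fold change of 0.95 without LPS replicate 2, its high library, and Stau1 of 0.57 without LPS replicate 1. The adjusted p was then under 0.05. These libraries were singled out by their values for the same genes, so a smaller p follows from the choice. With another LPS library left out, the adjusted p was 0.234 and 0.365 for Txndc5 and 0.462 and 0.456 for Stau1. D3Ertd254e rested mostly on LPS, where it was at 16.8 to 19.1 CPM without and 30.0 to 31.9 CPM with M2-Exo. In hyperoxia it was at 18.6 to 20.6 CPM without M2-Exo, and at 33.8, 22.2 and 22.9 CPM with it.

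The remaining higher genes had small differences that were steady across libraries. Nudt21, a subunit of the cleavage factor that selects poly(A) sites, was at 70.7 to 71.4 CPM in LPS, 79.2 to 82.7 in LPS + M2-Exo, 42.9 to 44.7 in Hyp and 46.3 to 48.3 in Hyp + M2-Exo (log2 fold change 0.15, SE 0.0291). Gnl3, the nucleolar GTPase nucleostemin, was at 127 to 133 CPM in LPS, 135 to 147 in LPS + M2-Exo, 244 to 247 in Hyp and 260 to 273 in Hyp + M2-Exo (0.13, SE 0.0259). Ccnd2, the G1 cyclin D2, had a log2 fold change of 0.11 (SE 0.0242), Msrb1, a selenoprotein that repairs oxidized methionine, 0.21 (SE 0.0482), and the zinc finger gene Zfp711 0.19 (SE 0.0418). The groups of each of these 5 genes did not overlap in either injury. By position Gnl3 overlaps Glt8d1, and reads of the pair may not be fully told apart. Zdhhc24, of the palmitoyltransferase family, had unequal values in the injuries, with a log2 fold change of 0.19 in LPS and 1.03 in hyperoxia (interaction, unadjusted p = 8.63e-05, adjusted p = 0.119).

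**Figure D2:**
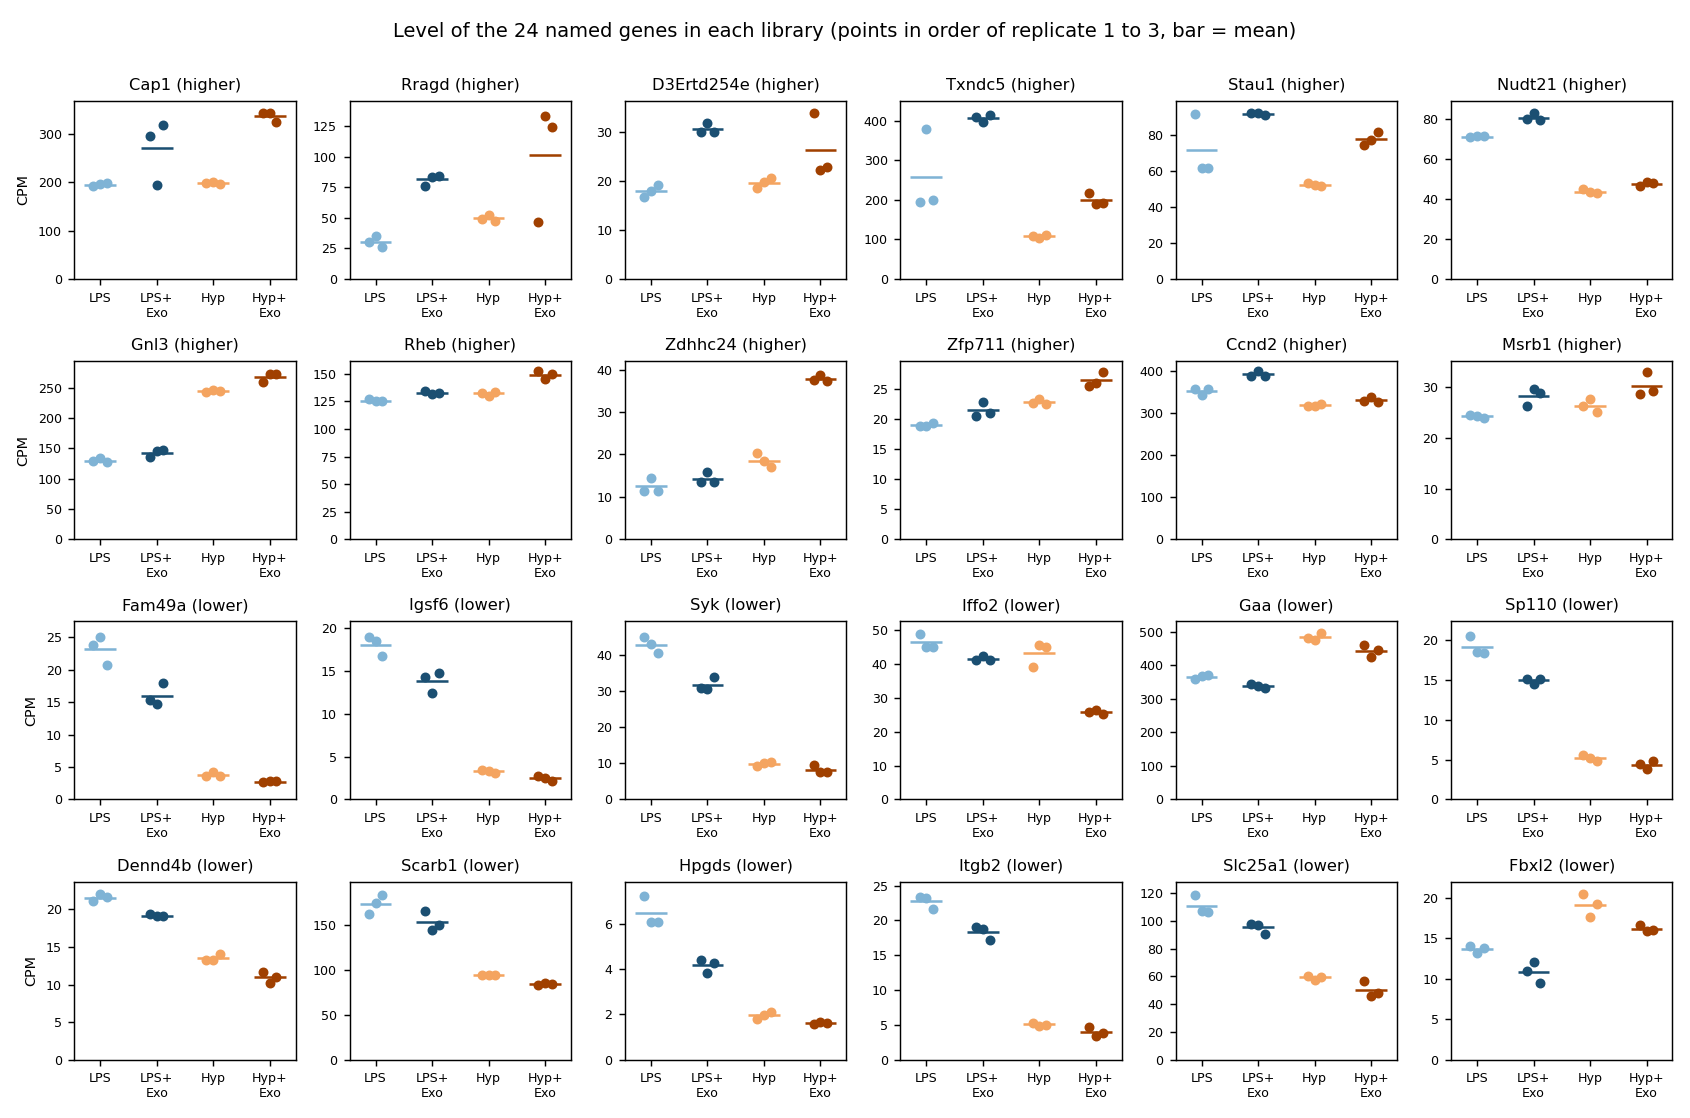
CPM in each of the 12 libraries for the 24 named genes, 1 panel a gene, with the y axis from 0, points in order of replicate and bars at the group mean. Cap1, Rragd, Txndc5 and Stau1 each have 1 library at the level of the other group, whereas genes such as Nudt21, Igsf6 and Sp110 are separated in both injuries by small steps.

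The genes with lower levels included several that are known mainly from macrophages and other myeloid cells. Fam49a, a regulator of Rac1 and the actin network, had the smallest p of all genes (chromosome 12, 12262139 to 12376359, plus strand). It was at 23.9, 25.1 and 20.8 CPM in LPS, 15.3, 14.7 and 17.9 CPM in LPS + M2-Exo, 3.56, 4.21 and 3.65 CPM in Hyp and 2.63, 2.86 and 2.78 CPM in Hyp + M2-Exo. The groups did not overlap in either injury, and the log2 fold change was -0.51 (SE 0.0761, adjusted p = 0.128). Igsf6, an immunoglobulin superfamily receptor of myeloid cells, was at 16.7 to 18.9 CPM in LPS, 12.4 to 14.8 in LPS + M2-Exo, 3.13 to 3.47 in Hyp and 2.20 to 2.71 in Hyp + M2-Exo (-0.39, SE 0.071). Itgb2, the beta chain of the leukocyte integrins, was at 21.7 to 23.4 CPM in LPS, 17.2 to 19.1 in LPS + M2-Exo, 4.91 to 5.33 in Hyp and 3.35 to 4.71 in Hyp + M2-Exo (-0.33, SE 0.0714). Both genes were also separated in both injuries. By position Igsf6 overlaps Mettl9, which had 1178 to 1574 counts in the hyperoxia libraries against 46 to 84 for Igsf6. Reads of Igsf6 and Mettl9 may thus not be fully told apart.

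Syk, the kinase downstream of immune receptors, was separated in LPS, at 40.6 to 45.1 CPM without and 30.6 to 33.9 CPM with M2-Exo. In hyperoxia its groups overlapped, at 9.14, 10.2 and 10.4 CPM without and 9.55, 7.55 and 7.48 CPM with M2-Exo. Its log2 fold change was -0.36 (SE 0.0683, adjusted p = 0.223), and -0.42 without Hyp + M2-Exo replicate 1, with an adjusted p under 0.05. That library was singled out by its high value for Syk, and leaving out any other single library did not give such an adjusted p. Hpgds, the hematopoietic prostaglandin D synthase, had a log2 fold change of -0.48 (SE 0.103), and Sp110, an interferon-inducible nuclear body protein, of -0.31 (SE 0.0643). Both were separated in both injuries.

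The other lower genes had various roles. Slc25a1, the mitochondrial citrate carrier that supplies carbon for lipid synthesis, was at 107 to 119 CPM in LPS, 90.9 to 97.5 in LPS + M2-Exo, 57.6 to 60.5 in Hyp and 45.7 to 56.5 in Hyp + M2-Exo (log2 fold change -0.23, SE 0.0503). Scarb1, the receptor for high-density lipoprotein, was at 94.5 CPM in all 3 Hyp libraries and at 83.9 to 85.7 CPM in Hyp + M2-Exo. In LPS its groups overlapped, at 163 to 185 CPM without and 145 to 166 CPM with M2-Exo (-0.17, SE 0.036). Gaa, the lysosomal acid alpha-glucosidase, had a log2 fold change of -0.12 (SE 0.0246), Dennd4b, of a family of Rab exchange factors, of -0.23 (SE 0.049), and Fbxl2, a substrate receptor of an SCF ubiquitin ligase, of -0.28 (SE 0.0619). These 3 genes and Slc25a1 were separated in both injuries. By position Fbxl2 overlaps Ubp1, which had 1179 to 2917 counts against 170 to 493 for Fbxl2, so their reads may not be fully told apart. Iffo2, an intermediate filament family gene, was lower by 0.16 in LPS and by 0.74 in hyperoxia on the log2 scale (interaction, unadjusted p = 2.84e-05, adjusted p = 0.0672).

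Over the lists of genes examined, macrophage markers stood lowest. Of 17 markers, 14 passed the filter on low counts, and 13 of the 14 lay lower with M2-Exo, 8 of them (57.1%) at an unadjusted p under 0.05, against 4.71% of all genes. None had an adjusted p under 0.05. The median log2 fold change was -0.225, with -0.321 in LPS and -0.119 in hyperoxia, against 0.00234 over all genes. Each marker had the same sign in both injuries, and none had an unadjusted p under 0.05 for the interaction. Some of these signs rest on almost no counts. The marker Marco had means of 0.0134 and 0 CPM in hyperoxia without and with M2-Exo, and Itgax 0.0538 and 0.0207 CPM in LPS. The sum over the markers was 520 to 579 CPM in LPS and 414 to 467 CPM in LPS + M2-Exo. In hyperoxia it was 137 to 142 CPM without M2-Exo, and 156, 121 and 104 CPM in Hyp + M2-Exo replicates 1, 2 and 3. The levels were thus separated in LPS but not in hyperoxia, where replicate 1 lay above all 3 Hyp libraries. Without that library 10 of the markers had an unadjusted p under 0.05 and the median was -0.321. Without LPS + M2-Exo replicate 2 and Hyp + M2-Exo replicate 3, the libraries that stood apart, 4 did and the median was -0.18.

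The single markers show where the groups overlapped. Csf1r, the receptor for macrophage colony-stimulating factor, was at 110, 111 and 101 CPM in LPS, 82.4, 79.5 and 92.6 CPM in LPS + M2-Exo, 17.7, 18.2 and 21.9 CPM in Hyp and 23.1, 16.9 and 14.4 CPM in Hyp + M2-Exo. Lyz2, lysozyme, was at 111, 105 and 91.2 CPM in LPS, 82.2, 72.5 and 79.0 CPM in LPS + M2-Exo, 24.5, 26.1 and 27.0 CPM in Hyp and 31.5, 21.4 and 18.5 CPM in Hyp + M2-Exo. Spi1, the myeloid transcription factor PU.1, had a log2 fold change of -0.31 (SE 0.102), Ptprc, the leukocyte antigen CD45, of -0.35 (SE 0.103), and Laptm5, a lysosomal protein of hematopoietic cells, of -0.30 (SE 0.0849). Fcer1g, an adaptor of Fc receptors, had -0.29 (SE 0.0874). These markers were lower in hyperoxia than in LPS also without M2-Exo, Csf1r with a mean of 107 CPM in LPS and 19.3 CPM in Hyp. Mrc1, a mannose receptor, was the 1 marker with a positive coefficient (0.40, SE 0.248). The markers of IL-4 polarized macrophages were at or near 0, with at most 3 counts of Arg1 in any library, 0 of Chil3 and Retnla, and at most 25 counts of Mrc1. The labels name MLE-12 cells alone, and whether these transcripts came from the MLE-12 cells or from other cells was not tested. In bulk samples fewer cells of a type and less RNA per cell cannot be told apart. The part of macrophage RNA, if any, in the lower levels of Igsf6, Itgb2, Syk, Hpgds and Fam49a was not tested.

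Of 27 tested NF-kB targets, genes of inflammation, 18 were lower and 9 higher in the additive fit. In LPS they were near balance, with 15 lower and 12 higher, and in hyperoxia 20 were lower. Their sum was 3891 to 3938 CPM in LPS and 3889 to 4056 CPM in LPS + M2-Exo, and 2540 to 2620 CPM in Hyp and 2809, 2567 and 2355 CPM in Hyp + M2-Exo, so that it overlapped in both injuries. At an unadjusted p under 0.05, 6 were lower, against 4.71% of all genes, and 2 higher. None had an adjusted p under 0.05, and the median was -0.033 in LPS and -0.0913 in hyperoxia. The chemokine Ccl5 was at 7.15, 6.35 and 4.96 CPM in LPS and 3.66, 4.02 and 4.08 CPM in LPS + M2-Exo, and at 0.882 to 1.32 CPM in Hyp and 0.667 to 0.958 CPM in Hyp + M2-Exo (log2 fold change -0.55, SE 0.142). Complement C3 had a log2 fold change of -0.20 (SE 0.0585), and the mitochondrial superoxide dismutase Sod2 of -0.11 (SE 0.0398). The 2 higher were the adhesion molecule Vcam1 (0.08, SE 0.0359) and Tnfaip3, a feedback inhibitor of the pathway (0.42). Tnf was at 11.6 to 14.2 CPM in LPS and 9.83 to 11.7 CPM in LPS + M2-Exo (-0.29, SE 0.123). As for the macrophage markers, the median level of the list in Hyp + M2-Exo replicate 1 lay above the mean of Hyp, by 0.0602 on the log2 scale, and in replicates 2 and 3 below it, at -0.147 and -0.159. Without the 2 libraries that stood apart, 2 genes were lower and 3 higher at an unadjusted p under 0.05, and without Hyp + M2-Exo replicate 1, 9 were lower and 0 higher. Their relation to the macrophage markers was not tested.

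**Figure D3:**
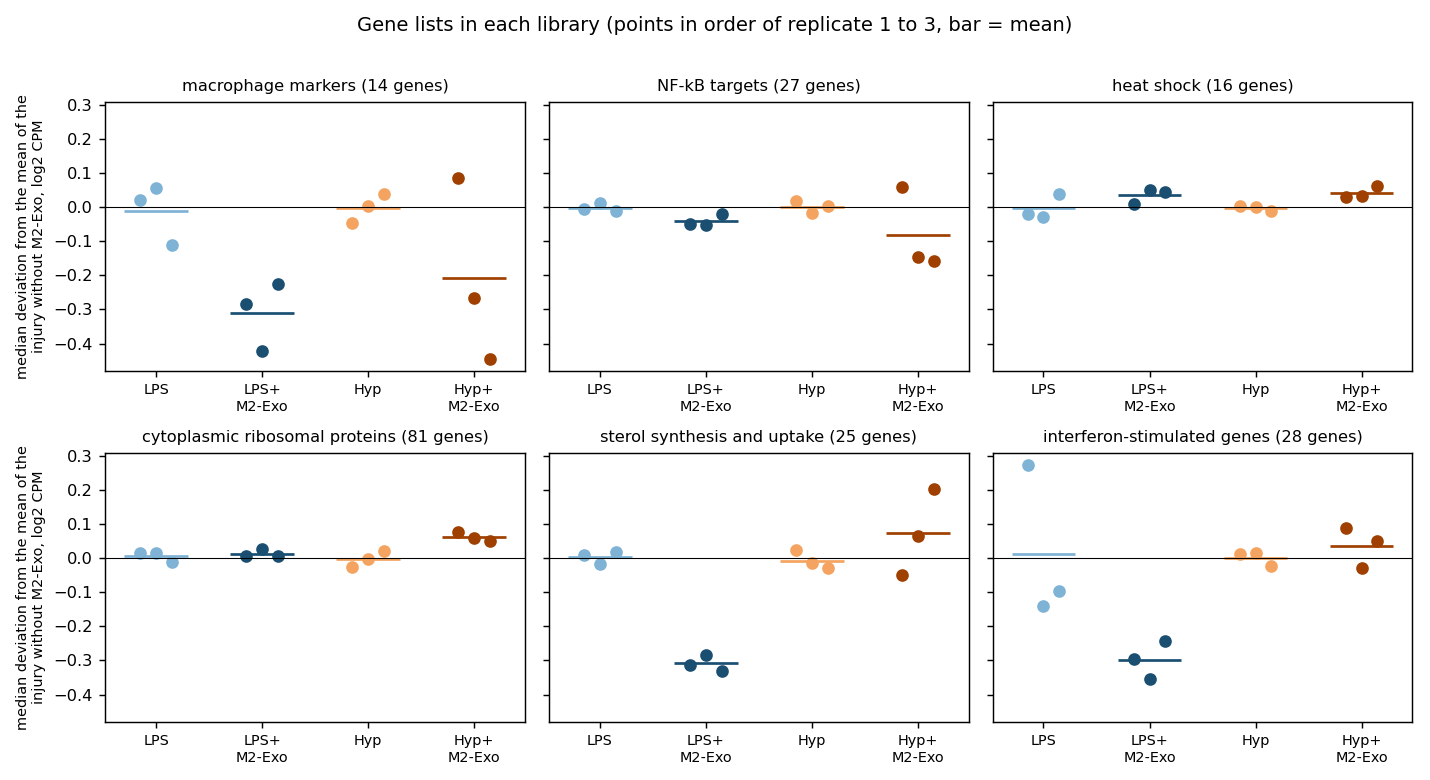
Median deviation of each list in each library from the mean of the injury without M2-Exo (y axis, log2 CPM), with points in order of replicate and bars at the group mean. Macrophage markers lie at -0.225 or below in 5 of the 6 libraries with M2-Exo and at 0.0848 in Hyp + M2-Exo replicate 1, while in LPS + M2-Exo sterol genes lie at -0.284 or below and interferon-stimulated genes at -0.244 or below.

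Heat shock, ribosome and mitosis genes had small positive medians in both injuries, but single genes often differed in sign between the injuries. The sign was the same for 10 of 16 heat shock, 52 of 81 ribosomal protein and 17 of 30 mitosis genes, against 50.9% of all genes. Of 16 heat shock genes 13 were higher, 5 of them at an unadjusted p under 0.05 (5.21% of all genes were so), with a median of 0.0434 in LPS and 0.0499 in hyperoxia. Without LPS + M2-Exo replicate 2 and Hyp + M2-Exo replicate 3, 2 were higher and 1 lower at that threshold. Hspe1 and Hspd1, the partner chaperonins of mitochondria, which overlap by position, had log2 fold changes of 0.12 (SE 0.0409) and 0.07 (SE 0.0249). Hsp90aa1, the inducible cytosolic HSP90, was at 534 to 639 CPM in LPS, 656 to 696 in LPS + M2-Exo, 865 to 889 in Hyp and 896 to 924 in Hyp + M2-Exo, without overlap in either injury.

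Chaperone genes of the endoplasmic reticulum lay on both sides. Of 20 such genes 14 were higher in the additive fit (median 0.0309), with a median of 0.0219 in LPS and -0.00973 in hyperoxia, where 10 were lower. At an unadjusted p under 0.05, 1 was higher, Calr, and 1 was lower, Sel1l, and these were also the 2 genes separated the same way in both injuries. Sel1l, of the degradation pathway of this compartment, had a log2 fold change of -0.34. Its separation was narrow, as LPS replicate 1 and Hyp replicate 3 lay close to the level with M2-Exo (values under Other observations). Calr, a calcium-binding chaperone, was at 748 to 777 and 791 to 830 CPM in LPS without and with M2-Exo and 1063 to 1088 and 1104 to 1190 CPM in hyperoxia.

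Of 81 cytoplasmic ribosomal protein genes, 58 were higher and 23 lower. At an unadjusted p under 0.05, 11 (5.21% of all genes were so) were higher and 0 lower, and without LPS + M2-Exo replicate 2 and Hyp + M2-Exo replicate 3, 7 and 0. The sum over these genes overlapped in LPS, at 20300 to 20400 CPM without and 20270 to 20560 CPM with M2-Exo, and was 15400 to 15710 and 15940 to 16380 CPM in hyperoxia. The median was 0.0219 in LPS and 0.0554 in hyperoxia. Rps20 (log2 fold change 0.10, SE 0.0301) and Rps21 (0.20, SE 0.0631) had small p, and each was separated in hyperoxia and overlapped in LPS. Reads of ribosomal protein genes can be shared with pseudogene copies, so single values are uncertain. Of 30 mitosis genes, 23 were higher, 5 of them at an unadjusted p under 0.05 (again against 5.21%), with a median of 0.0336 in LPS and 0.0413 in hyperoxia. The median level of the list in Hyp + M2-Exo replicate 3, at -0.011 from the mean of Hyp on the log2 scale, lay below all 3 Hyp libraries. Mad2l1, of the spindle checkpoint, had a log2 fold change of 0.08 (SE 0.0252), the spindle motor Kif11 0.07 (SE 0.0236), and the checkpoint kinase Bub1 0.06 (SE 0.0226). No gene of these lists had an adjusted p under 0.05.

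For the genes of sterol synthesis and uptake the medians of the 2 injuries had opposite signs. All 25 tested genes of sterol synthesis and uptake had a negative coefficient in the fit common to both injuries, with a median of -0.105. An unadjusted p under 0.05 was reached by 6, where the share over all genes was 4.71% (11 without the 2 libraries that stood apart). In LPS, however, 24 of the 25 were lower, with a median of -0.29, whereas in hyperoxia 19 were higher, with a median of 0.0883. Their sum was 7566 to 7743 CPM in LPS and 6150 to 6248 CPM in LPS + M2-Exo, without overlap. In hyperoxia it was 2934 to 3064 CPM without M2-Exo and 2879, 3137 and 3494 CPM in Hyp + M2-Exo replicates 1, 2 and 3, so that replicate 1 lay below all 3 Hyp libraries and replicate 3, which stood apart, was the highest. Without replicate 3 the median of the common coefficient was -0.167. For 20 of them (80%) the interaction had an unadjusted p under 0.05, against 9.78% of all genes, and for 1, Acat2, an adjusted p under 0.05. Hmgcs1, the synthase that starts the mevalonate branch, had log2 fold changes of -0.37 in LPS and 0.23 in hyperoxia, and Idi1, an isomerase of the same pathway, of -0.51 and 0.15. Srebf2, the transcription factor that drives these genes, was the 1 gene of the list separated the same way in both injuries. It was at 721, 758 and 764 CPM in LPS, 699, 676 and 668 CPM in LPS + M2-Exo, 283, 257 and 273 CPM in Hyp and 254, 252 and 248 CPM in Hyp + M2-Exo (log2 fold change -0.12, SE 0.027, adjusted p = 0.296). Of 13 genes of fatty acid synthesis, 10 had a negative coefficient, with a median of -0.142 in LPS and 0.043 in hyperoxia. The desaturase Fads1 was separated in both, at 309 to 311 and 266 to 285 CPM in LPS and 211 to 221 and 204 to 210 CPM in hyperoxia.

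Of 28 interferon-stimulated genes, 26 had a negative common coefficient, 5 of them at an unadjusted p under 0.05, against 4.71% of all genes. These were 11 without Hyp + M2-Exo replicate 1 and 2 without the libraries that stood apart. All 28 were lower in LPS (median -0.345), and in hyperoxia 19 were higher and 9 lower (median 0.0365). For 8 (28.6%) the interaction had an unadjusted p under 0.05, against 9.78% of all genes. LPS replicate 1 was high, with a median deviation of 0.273 against -0.141 and -0.0967 in the other LPS libraries, and without it the median of the common coefficient was -0.0764 in place of -0.155. Ifit1, an antiviral RNA-binding protein, was at 15.3, 8.01 and 8.79 CPM in LPS and 5.64, 6.61 and 6.15 CPM in LPS + M2-Exo, and lay between 1.56 and 2.35 CPM in all hyperoxia libraries. Ifit3, a partner of Ifit1, had log2 fold changes of -1.19 in LPS and -0.18 in hyperoxia.

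**Figure D4:**
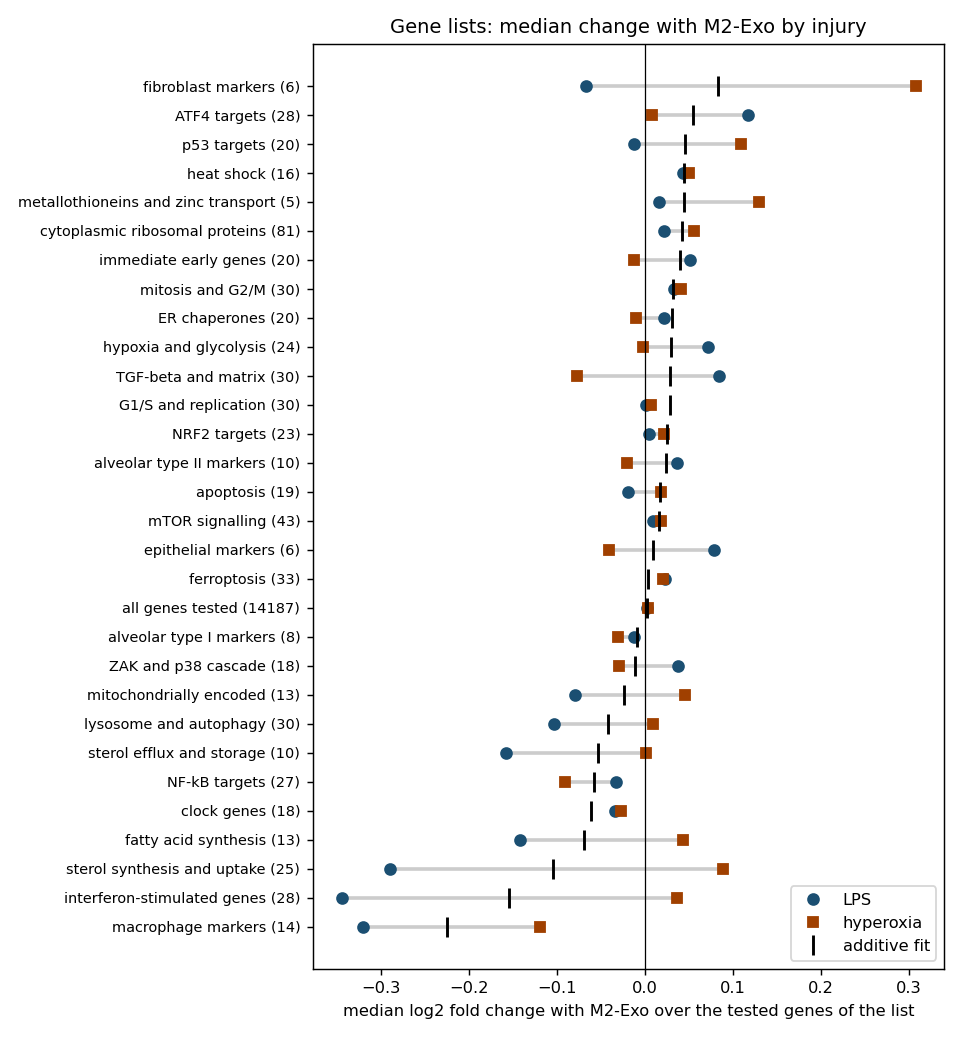
Median log2 fold change with M2-Exo (x axis) over the tested genes of each list with at least 5 such genes (number in parentheses), in LPS (circles), in hyperoxia (squares) and in the additive fit (bars). Macrophage markers are lowest at -0.225 and negative in both injuries, and the sterol list runs from -0.29 in LPS to 0.0883 in hyperoxia.

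The mTOR list, with Rragd and Rheb as its leading members, was near balance. Of 43 genes 25 were higher and 18 lower, with a median of 0.0161. Tsc2, which restrains Rheb, was at 159 to 164 CPM in LPS, 150 to 162 in LPS + M2-Exo, 145 to 149 in Hyp and 133 to 137 in Hyp + M2-Exo (log2 fold change -0.08, SE 0.025), overlapping in LPS and separated in hyperoxia. Of 33 ferroptosis genes 17 were higher and 16 lower, with a median of 0.0036. Tfrc, the transferrin receptor that takes up iron, was separated in both injuries, at 351 to 382 CPM in LPS, 391 to 423 in LPS + M2-Exo, 637 to 675 in Hyp and 684 to 709 in Hyp + M2-Exo (0.12, SE 0.0287, adjusted p = 0.296). Atg5, which acts in autophagosome formation, was separated in both injuries as well (0.13, SE 0.0358). Fth1, the ferritin heavy chain that stores iron, had log2 fold changes of -0.23 in LPS and -0.06 in hyperoxia (interaction, unadjusted p = 0.0242). Of 18 genes of the ZAK and p38 cascade 8 were higher and 10 lower, with a median of -0.0113.

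Genes that were also measured by other means in the study were not called here. The ribotoxic stress kinase Map3k20, listed under its older symbol Zak, was at 132 to 135 CPM in LPS, 129 to 136 in LPS + M2-Exo, 111 to 119 in Hyp and 110 to 117 in Hyp + M2-Exo (log2 fold change -0.01, SE 0.026). Gpx4, the peroxidase that guards against ferroptosis, was separated in LPS, at 68.3 to 73.9 CPM without and 75.5 to 78.4 CPM with M2-Exo, and overlapped in hyperoxia, at 64.3 to 68.0 and 62.3 to 71.7 CPM (0.06, SE 0.0403). Sftpc overlapped in LPS, at 21.5 to 23.3 and 21.8 to 23.4 CPM, and was separated in hyperoxia, at 10.5 to 12.1 and 12.3 to 13.9 CPM (0.12, SE 0.0577). The water channel Aqp5 overlapped in both injuries (0.10, SE 0.139). The p38 kinase Mapk14 varied within groups, with 146, 86.9 and 59.5 CPM in LPS + M2-Exo and 44.9, 106 and 111 CPM in Hyp (0.15, SE 0.337). Bax and Bcl2, which promote and restrain apoptosis, had log2 fold changes of 0.05 (SE 0.04) and 0.01 (SE 0.0899), the lipogenic factor Srebf1 -0.01 (SE 0.0478) and the desaturase Scd1 -0.09 (SE 0.0336).

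The remaining lists had medians between -0.0612 and 0.147, and none held a gene with an adjusted p under 0.05. Of 28 ATF4 targets, which respond to amino acid shortage and stress of the endoplasmic reticulum, 19 were higher, with a median of 0.117 in LPS and 0.00795 in hyperoxia. Of 20 p53 targets 17 were higher, with -0.013 in LPS and 0.109 in hyperoxia. Of 30 genes of lysosome and autophagy 24 were lower, with -0.104 in LPS and 0.00962 in hyperoxia, and of 30 genes of TGF-beta and matrix 19 were higher, with 0.0838 and -0.0774. Of 13 mitochondrially encoded genes 12 were lower in LPS (median -0.08) and 12 higher in hyperoxia (0.0459). None had an unadjusted p under 0.05 in the additive fit, and 1 had for the interaction. Their sum overlapped in LPS, at 39810 to 42790 CPM without and 37340 to 41130 CPM with M2-Exo. It overlapped in hyperoxia too, at 25340 to 27640 and 26720 to 28380 CPM. In these lists the 2 injuries thus had unequal or opposite medians.

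Other lists are given by their counts and their median in the additive fit. Of 30 genes of G1/S and replication 20 were higher (median 0.0285), of 23 NRF2 targets 16 (0.0251), of 24 hypoxia and glycolysis genes 18 (0.0293), of 20 immediate early genes 13 (0.0402), of 19 apoptosis genes 14 (0.0166), of 5 genes of metallothioneins and zinc transport 4 (0.0439), and of 10 genes of sterol efflux and storage 3 (-0.0537, with -0.158 in LPS and 0.000748 in hyperoxia). Of 18 clock genes 7 were higher (-0.0612). Abca1, which exports cholesterol, had a log2 fold change of 0.49 in LPS and 0.09 in hyperoxia (interaction, unadjusted p = 0.00343), and Tgfb1, the cytokine of the matrix list, of -0.27 and -0.18. In LPS Abca1 lay in the direction opposite to the sterol synthesis genes, and also to 6 of the 10 genes of its own list, sterol efflux and storage.

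Markers of the epithelial state lay on both sides. Of 10 tested alveolar type II markers 6 were higher (median 0.0235), of 8 type I markers 4 (-0.0096) and of 6 epithelial markers 3 (0.00878). Abca3 was at 194 to 203 CPM in LPS, 187 to 194 in LPS + M2-Exo, 148 to 153 in Hyp and 135 to 140 in Hyp + M2-Exo (log2 fold change -0.09, SE 0.0235, adjusted p = 0.351). It overlapped in LPS and was separated in hyperoxia. Cav1, the caveolin of type I cells, had a log2 fold change of -0.92 (SE 0.318) and Krt8, a keratin, of -0.08 (SE 0.0326). The groups of Cav1 overlapped in hyperoxia, where Hyp replicate 2 lay at the level of Hyp + M2-Exo (values under Other observations). Of 6 fibroblast markers 4 were higher in the additive fit (0.0829), with a median of -0.0665 in LPS and 0.308 in hyperoxia. Their sum was 818 to 843 CPM in LPS and 776 to 798 CPM in LPS + M2-Exo, which did not overlap, and 330 to 358 CPM in Hyp and 350 to 360 CPM in Hyp + M2-Exo, which did. Of 3 endothelial markers 2 were higher (0.147), with a median of -0.902 in LPS and 0.123 in hyperoxia and a sum of at most 26.9 CPM. In LPS the sum did not fall, at 22.59 to 25.57 CPM without and 25.55 to 26.93 CPM with M2-Exo. The median of so few genes at low levels is uncertain.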

How the data were processed

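Poly(A) RNA of MLE-12 cells was sequenced by the authors, who deposited 1 table of 34745 genes with read counts and FPKM in each of the 12 libraries. The deposited counts were raw, and the deposited FPKM were normalized by the authors to gene length and library total. The submitters' processing notes name HISAT2 2.0.4, StringTie 1.3.0, edgeR and build GRCm38. How reads were counted and whether strand was used are not given in the sources used here. Of the genes tested, 41.3% overlap another gene of the table.

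The additive fit of injury and M2-Exo over all 12 libraries was made with edgeR 4.0.16 under R 4.3.3 (filterByExpr, TMM factors of 0.9641 to 1.036, quasi-likelihood F test). The interaction was tested in a second fit, and the changes of each injury came from a fit of 4 groups. P-values were adjusted by Benjamini-Hochberg over 14187 genes. CPM are TMM-scaled. The fits were tested on simulated data. Alternatives were run with limma 3.58.1 (prior count 2; FPKM with a pseudocount of 1 and a mean of at least 1) and DESeq2 1.42.0.

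Genes were named if an adjusted p was under 0.05, and otherwise by the smallest p, 12 per direction, among genes with a mean of at least 50 counts, the same sign in both injuries and a symbol that is not a predicted one, together with up to 3 members of each list and the genes the study measured. Lists are described by counts and medians, with no test. The comparison, the 24 pathway and 6 marker lists and the rule were chosen with earlier results of these data known. Counting error allows up to 3 counts where none were seen. The authors' values for single genes were not compared with these.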

Additional observations from a re-analysis of the deposited data

Results flagged for a closer look

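The change with M2-Exo differed between the injuries for 5 genes by the edgeR interaction term at an adjusted p under 0.05. Slc30a7, which carries zinc into the Golgi, was higher with M2-Exo in LPS (log2 fold change 0.81) and not separated in hyperoxia (0.02), and the difference of the changes, hyperoxia minus LPS, was -0.79 (adjusted p = 0.000138). Its level was 41.4 to 43.5 CPM in LPS, 74.0 to 77.2 in LPS + M2-Exo, 109 to 116 in Hyp and 112 to 116 in Hyp + M2-Exo. Pigb, a mannosyltransferase of the GPI anchor that overlaps Ccpg1, was at 26.6 to 27.6 CPM in LPS and 14.0 to 15.5 CPM in LPS + M2-Exo, near the level of hyperoxia without M2-Exo (15.4 to 15.7 CPM), and the difference was 0.94 (adjusted p = 0.00246). For Acat2, a thiolase of sterol synthesis, the change was -0.39 in LPS and 0.13 in hyperoxia, and the difference was 0.52 (adjusted p = 0.00639). For Usp36, a nucleolar deubiquitinase, the change was 0.16 in LPS and -0.27 in hyperoxia, and the difference was -0.43 (adjusted p = 0.0221). For Ube2s, a ubiquitin-conjugating enzyme that works with the anaphase-promoting complex and overlaps Rpl28, it was 0.41 and -0.11, and the difference was -0.52 (adjusted p = 0.0244). Acat2 and Usp36 were separated in both injuries, in opposite directions.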

How the results depend on the processing

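The count of genes called for M2-Exo, 0 by edgeR, stayed at 0 with RLE scaling, library size alone, at least 10 counts in every library, both limma fits, an added log2 fold change of at least 0.5 and genes that overlap no other gene. It was 6 without a filter on low counts, 40 with DESeq2, 4 as the average of both changes in the fit of 4 groups, 25 in the LPS libraries alone and 14 in the hyperoxia libraries alone. With 1 library left out it was 0 to 4. Leaving out both libraries that stood apart, chosen after seeing the data, gave 1, Cap1. No pairing by replicate number was seen, as same-numbered samples had correlations of -0.012 to 0.05 of their deviations from the group means. Whether same-numbered samples were handled together is not given in the sources used here. With a replicate block the count was 0, with 1212 genes at an unadjusted p under 0.05. The count of the interaction, 5, was 13 without a filter, 76 with DESeq2, 8 with limma-trend, 1 with the replicate block (Slc30a7), 4 to 34 with 1 library left out (34 without Hyp + M2-Exo replicate 1) and 9 without both libraries that stood apart. The cause of these differences was not tested. The 182 genes separated the same way were 173 to 182 under the alternatives. Each of the 24 genes named by p kept its sign in all 19 alternatives. Signs turned for Bcl2 (-0.00459 with limma-trend, -0.001507 with the replicate block, down to -0.04342 and up to 0.07305 with 1 library left out), Mapk14 (-0.1011 to 0.3333 with 1 library left out, -0.07735 without both), Srebf1 (-0.04786 to 0.02561, and 0.02336) and Aqp5 (-0.007288 without both). List medians of macrophage markers lay between -0.321 and -0.18, and medians near 0 changed sign for ferroptosis genes (13 of 15 alternatives), epithelial markers (5), mTOR and TGF-beta genes (2 each), and type I markers, G1/S and mitochondrially encoded genes (1 each). Markers near 0 were limited by depth.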

Other observations

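Among the 40 genes that DESeq2 called, all had the same sign in both injuries, and 5 had an unadjusted p under 0.05 for the interaction. None exceeded an unadjusted p of 0.00222 in edgeR. A choice by a common coefficient favours genes with the same sign in both injuries, so the shared sign is a description. Of the 1407 genes with an unadjusted p under 0.05 in edgeR, 1373 had it too. Outside the genes named above, those higher included Nme1, a nucleoside diphosphate kinase (log2 fold change 0.30 in LPS and 0.13 in hyperoxia), Srsf7, a splicing factor (0.15 and 0.17), Nedd8, a ubiquitin-like modifier (0.10 and 0.26), and Ncapg, a condensin subunit (0.14 and 0.12). Those lower included Ly9, a receptor of immune cells (-0.44 and -0.26), Jak3, a kinase of cytokine receptors (-0.18 and -0.23), and Lrp5, a Wnt coreceptor (-0.12 and -0.27). These genes were picked after their values were seen.

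Several genes had widely unequal levels within a group, among them Cap1, Txndc5, Stau1 and Mapk14, whose values are given above. Cav1, of caveolae, was at 67.5, 17.2 and 65.2 CPM in Hyp, 19.3, 16.2 and 13.1 CPM in Hyp + M2-Exo and 54.0 to 83.3 CPM in all LPS libraries. Aen, a p53-induced nuclease, was at 11.8, 47.6 and 39.6 CPM in LPS + M2-Exo and 10.6 to 14.0 CPM in LPS, and at 26.0, 43.5 and 97.3 CPM in Hyp + M2-Exo. Sel1l, of the endoplasmic reticulum degradation pathway, was at 145, 201 and 191 CPM in LPS and 204, 187 and 140 CPM in Hyp, and between 137 and 144 CPM in all 6 libraries with M2-Exo. Clock, the circadian transcription factor, was at 71.5, 101 and 101 CPM in LPS and 201, 144 and 156 CPM in Hyp. These genes were singled out after their values were seen, and what sets their unequal levels was not tested.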
